A study of Mus musculus with 3 samples.

Results

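The proteasome genes of the mouse were followed here in a map of open chromatin of the embryonic liver. They were taken as the protein-coding genes whose symbol begins with Psma, Psmb, Psmc, Psmd, Psme, Psmf or Psmg, and 50 of 21851 protein-coding genes met that rule. The map was made by DNase-seq, a method that digests nuclei lightly with the nuclease DNase I, which reaches DNA not wrapped in nucleosomes, and then sequences the ends it leaves. The samples were 3 libraries of liver tissue from embryos of 13.5 days, labelled as biological replicates 1, 2 and 3, from mice labelled as strain C57BL/6N,129 and as wild type, with a single copy of the A20 YAC, a yeast artificial chromosome. All 3 libraries share that transgene and 1 donor identifier with a separate biosample each, sex was not collected, and there was no treatment and no control tissue. The genes were therefore described beside all protein-coding genes of the same libraries, with no test between groups of samples, and the spread between libraries may be technical.

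The 26S proteasome breaks down proteins marked with ubiquitin. Its 20S core is a barrel of outer alpha rings and inner beta rings, with the protein-cutting sites inside the beta rings, and its 19S cap has a base of ATPases that unfold the substrate and a lid that removes the ubiquitin chain. Immune cells and cells exposed to interferon exchange the catalytic beta subunits for the immunoproteasome subunits, the thymus and the testis have subunits of their own, and separate activators can take the place of the cap. In mammalian cells whose proteasome is impaired, the factor encoded by Nfe2l1 raises the transcription of the proteasome genes through antioxidant response elements (AREs), which it binds with small Maf proteins.

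The sequences that the footprint results turn on are given first. A footprint is a short stretch inside open chromatin that was cut less than its surroundings, as the authors called it, and the deposited footprints carry positions but no score. The next lines hold, in lower case, promoter sequence around ARE letters TGACNNNGC that lay in a footprint extended by 5 bp on each side. That held in 2 or 3 libraries. The matches of Psmb6 and Psmd1 reached beyond the footprint itself and counted only through that extension. Sequences are read 5′ to 3′ on the strand of the gene in mm10, with the matched letters, or their reverse complement, in capitals.
Psmb3 (chr11:97702519-97702587, plus strand, footprinted in 3 libraries): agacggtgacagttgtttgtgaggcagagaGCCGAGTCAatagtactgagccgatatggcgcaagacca
Psmd9 (chr5:123228129-123228197, plus strand, 3 libraries): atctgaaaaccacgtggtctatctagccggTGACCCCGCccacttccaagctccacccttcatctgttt
Psmb5 (chr14:54618004-54618072, minus strand, 3 libraries): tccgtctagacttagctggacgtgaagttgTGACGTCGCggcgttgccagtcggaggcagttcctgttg
Psmb6 (chr11:70525318-70525386, plus strand, 2 libraries): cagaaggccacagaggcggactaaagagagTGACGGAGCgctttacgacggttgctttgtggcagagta
Psmd1 (chr1:86064833-86064901, plus strand, 2 libraries): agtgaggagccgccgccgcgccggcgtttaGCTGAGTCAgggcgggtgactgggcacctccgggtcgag

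In the GENCODE basic annotation the matches of Psmb3, Psmb5 and Psmb6 lie upstream of the gene and in no other gene. The match of Psmd9 lies just before a coding start site and within an intron of other annotated transcripts of Psmd9 and of Gm26745, and that of Psmd1 lies in an intron of Psmd1. The second set shows the ETS letters CCGGAAG, which belong to a large family of factors found at many promoters without a TATA box, in 3 of the promoters where the same match was footprinted in all 3 libraries, chosen among those as the ones with the highest mean percentile of promoter signal, a rank explained with the values.
Psmd4 (chr3:95042703-95042769, minus strand, upstream of the gene): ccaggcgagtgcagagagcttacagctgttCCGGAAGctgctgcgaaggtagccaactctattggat
Psme3 (chr11:101316185-101316242, plus strand, match in the first bases of the transcript): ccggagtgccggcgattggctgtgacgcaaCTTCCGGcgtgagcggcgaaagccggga
Psme4 (chr11:30771692-30771755, plus strand, match at the start site): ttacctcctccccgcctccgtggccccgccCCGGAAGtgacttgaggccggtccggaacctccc
These lines differ outside the capitals, and the capitals stand from 122 bp before the start site in Psmd4 to 5 bp after it in Psme3.

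The libraries differed in yield. Replicates 1, 2 and 3 held 34369, 122281 and 60862 peaks and 89836, 342756 and 156638 footprints. The deposited signal moved in whole steps of 0.0112, 0.00347 and 0.00692, and if 1 step stands for 1 count, which the labels do not state, the depths stood as 1 to 3.22 to 1.62. The labelled tissue was checked by its markers. A peak stood in the promoter of all 10 erythroid marker genes in each of the 3 libraries, against 51.4% of all protein-coding genes. The same held for 4 of 10 hepatoblast, 0 of 6 macrophage, 1 of 6 lymphoid and 2 of 5 endothelial markers. It also held for 2 of 5 neural, 1 of 5 muscle and 1 of 5 germline markers. Only the erythroid share lay above that of all protein-coding genes. Among the hepatoblast markers Alb had no peak in any library, and Afp, Hnf4a, Ttr, Apoa1 and Dlk1 had none in replicate 1. In tissue, fewer cells of a type and less open chromatin per cell cannot be told apart.

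Nearly all proteasome promoters were open. Promoters were taken as windows reaching 1000 bp both ways from each coding transcription start site (TSS), and at least 1 bp of a peak fell in the window of 46, 49 and 48 of the 50 proteasome genes in replicates 1, 2 and 3. Among all protein-coding genes the shares were 54.0%, 67.3% and 56.4%, beside 92%, 98% and 96% of the proteasome genes. In all 3 libraries 46 proteasome genes had a peak, against 51.4% of all protein-coding genes. The exceptions were Psmb8 and Psmb10, with a peak in replicates 2 and 3, Psmb11, with one in replicate 2, and Psme2b, with none. The first 3 encode subunits of the immunoproteasome and of the thymus, and replicate 1, which lacks all of their peaks, is the library with fewest peaks.

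Signal strength placed most of the group above the middle of the genome. The promoter signal of a gene is the highest signal of a peak in its promoter, on the authors' scale, and its percentile is the share of protein-coding genes with a lower value, with genes without a peak at 0. The median promoter signal of the proteasome genes was 3.50, 10.2 and 6.47 in replicates 1, 2 and 3, against 0.672, 0.983 and 0.561 over all protein-coding genes. As percentiles the medians of the proteasome genes were 77.3, 80.4 and 79.0, with a mean of 78.9 ± 1.56 (SD, n = 3 libraries), against 49.9 ± 0.0375 over all protein-coding genes. Much of that distance came from having a peak at all: over genes with a peak in the library, the medians were 77.8, 80.4 and 79.9 in the proteasome genes and 73.0, 66.3 and 71.8 in all protein-coding genes. A percentile of at least 50 in every library was reached by 45 of 50 proteasome genes, against 47.2% of all protein-coding genes. At 75 the count was 24 of 50, against 20.9%. At 90 it was 5 of 50, against 6.50%, while in replicates 1, 2 and 3 taken singly 9, 9 and 8 proteasome genes reached 90, against 9.99%, 9.9995% and 9.99% of all protein-coding genes. Proteasome promoters also held more CpG sites, with a median of 58.5 in the 1001 bp around the start site against 47 over all protein-coding genes, and the part of CpG content in these results was not tested.

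**Figure D1:**
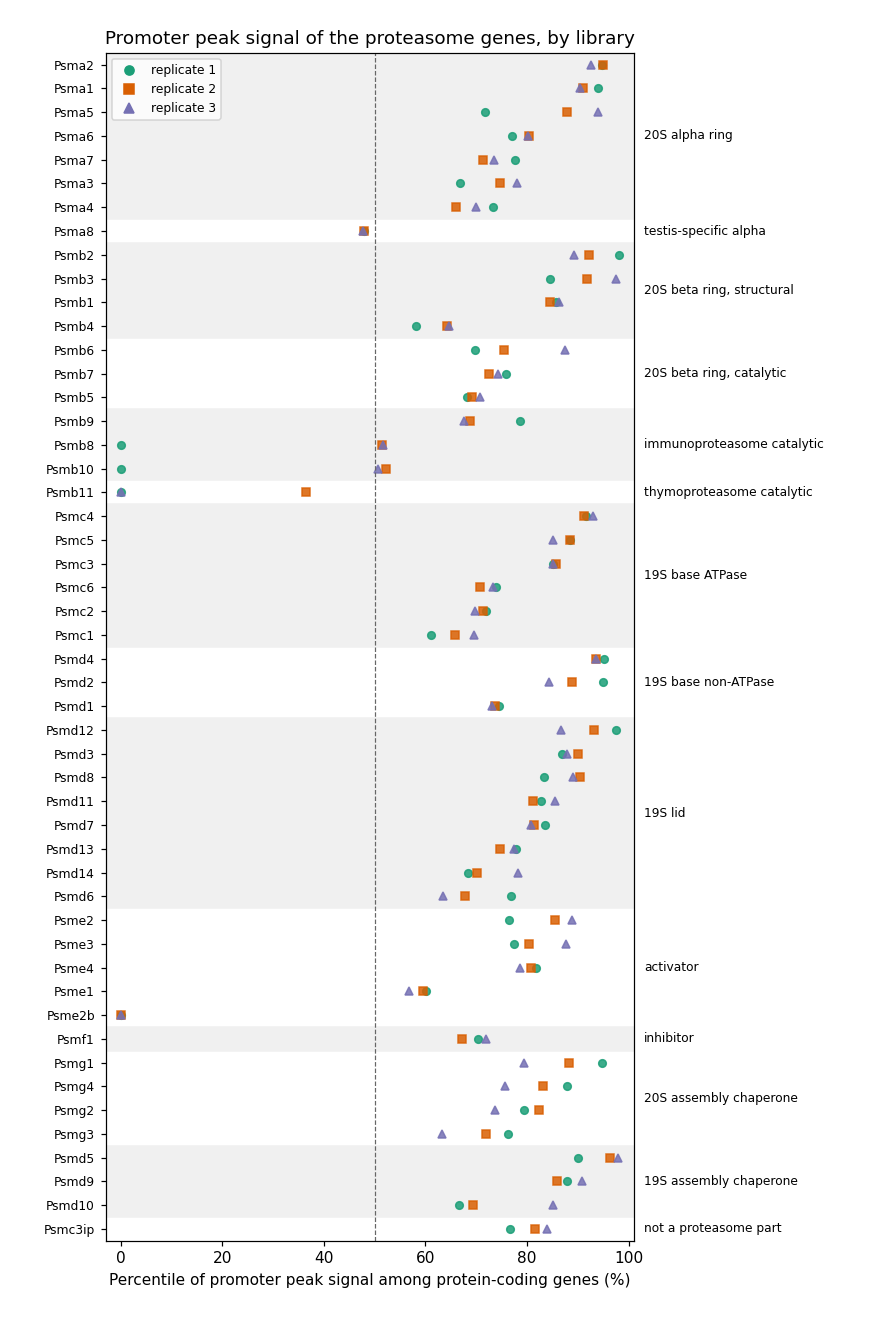
Percentile of promoter peak signal among all protein-coding genes (x axis, %) for each of the 50 proteasome genes (y axis), grouped by role; each point is 1 library and the dashed line marks the percentile of 50. The genes at or above the line in all 3 libraries number 45, while Psma8, Psmb8, Psmb10, Psmb11 and Psme2b have at least 1 library below it. In replicates 1, 2 and 3 taken singly the counts are 45, 47 and 47.

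The constitutive 26S subunits that the symbol rule names had peaks without exception. All 31 of them, 14 of the 20S core and 17 of the 19S cap, had a promoter peak and a promoter footprint in each of the 3 libraries. Among all protein-coding genes 51.4% had a peak and 49.5% a footprint in all 3 libraries. The median percentile of the constitutive subunits was 79.2 ± 3.62 for the core and 83.0 ± 1.47 for the cap (SD, n = 3 libraries). In replicates 1, 2 and 3 the medians of the cap were 83.3, 81.4 and 84.3, each above the 76.5, 77.9 and 83.3 of the core, by a distance that differed between libraries. The remaining 19 genes, which include chaperones, activators and the restricted subunits, had a median of 74.0 ± 2.33, and 15 of them had a peak in all 3 libraries.

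In the alpha ring, whose 7 subunits form the gate of the barrel, the median percentile was 79.2 ± 1.86. Psma2 led it, with signals of 6.33, 20.2 and 13.8 in replicates 1, 2 and 3 and a mean percentile of 94.1 ± 1.33. Its start site lies 75 bp from that of Mrpl32, a mitochondrial ribosomal protein gene on the opposite strand, and the strongest peak stands in both promoters. The lowest of the ring was Psma4, at 69.7 ± 3.67. Psma5 varied most between libraries in the ring: its signal was 2.87, 14.1 and 14.97, at percentiles of 71.7, 87.8 and 94.0. The value of Psma6, at 79.2 ± 1.86, depended on which start sites counted, since its most upstream coding TSS alone had no peak in any library.

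The structural beta subunits, which hold the ring together without cutting, spanned most of the range. Psmb2 stood at 93.2 ± 4.43 and Psmb3 at 91.4 ± 6.51, while Psmb4 stood at 62.3 ± 3.58, below every other constitutive subunit. Psmb4 had signals of 1.44, 4.40 and 2.62. The 3 constitutive catalytic subunits stood between 69.3 and 77.6.

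The subunits with restricted use were set beside the constitutive paralogs whose place they take. Psmb8, the immunoproteasome form of the chymotrypsin-like subunit, reached signals of 1.15 in replicate 2 and 0.678 in replicate 3 and was without a peak in replicate 1. Psmb11, the form of the same subunit in the cortex of the thymus, had a signal of 0.306 in replicate 2 and no peak in replicates 1 and 3. Psmb5, the constitutive form, had signals of 2.47, 6.03 and 4.05. In each library both restricted genes lay under the constitutive one.

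Psmb10 is the immunoproteasome counterpart of Psmb7, the trypsin-like subunit. Psmb10 reached 1.28 in replicate 2 and 0.609 in replicate 3 and was without a peak in replicate 1, while Psmb7 had 3.33, 7.16 and 4.97. The strongest peak of Psmb10 was centred 584 bp downstream of its start site in replicate 2 and 763 bp downstream in replicate 3. In replicate 2 a weaker peak of 0.698 lay 43.5 bp downstream. Widening the promoter to 2500 bp on either side took in stronger peaks of 1.88, 5.65 and 5.08 and raised the mean percentile of Psmb10 to 67.4, against 34.3 with the 1000 bp promoter.

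Psmb9, the counterpart of the caspase-like subunit Psmb6, was the immunoproteasome gene with a peak in every library. Its signals were 3.65, 5.90 and 3.28, against 2.65, 8.25 and 10.2 for Psmb6, so that Psmb9 was the higher in replicate 1 and the lower in replicates 2 and 3. The mean percentiles were 71.6 ± 6.08 for Psmb9 and 77.6 ± 9.01 for Psmb6, a distance within the spread between libraries. The peak of Psmb9 was centred between 353 and 363 bp downstream of its start site, inside the gene, and not at the start site itself. Psmb9 and Tap1, which carries peptides into the endoplasmic reticulum for antigen presentation, start 38 bp apart on opposite strands, so this peak stands in the promoter of both, and no listed peak in any library was centred nearer to the start site of Psmb9.

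Psma8 is the alpha subunit of the testis and the paralog of Psma7. It had a weak peak in every library, at signals of 0.537, 0.806 and 0.443, against 3.54, 6.80 and 4.73 for Psma7. Its percentile of 47.8 ± 0.204 was steady between libraries. On the authors' stricter peak list it lost its peak in replicate 1. Psma7 shares its promoter with Ss18l1, whose start site lies 76 bp away on the opposite strand.

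**Figure D2:**
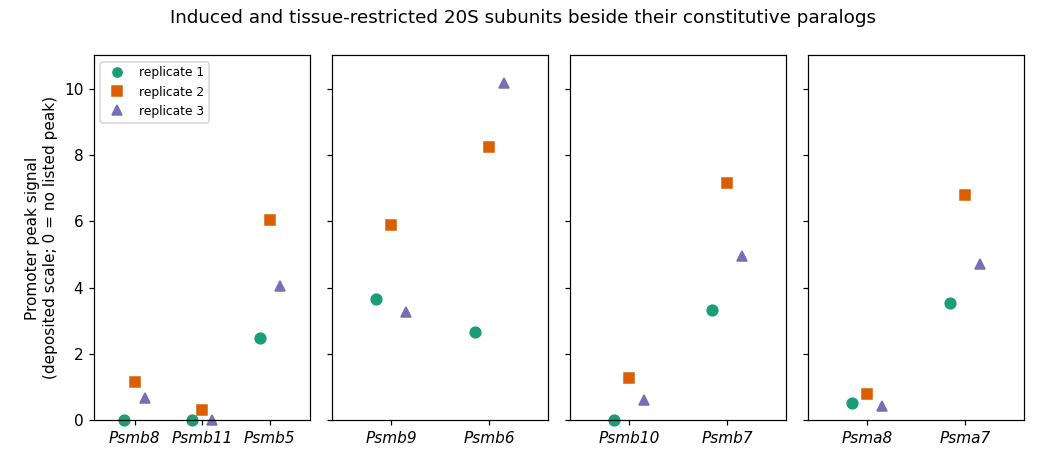
Promoter peak signal on the deposited scale (y axis, 0 where no peak is listed) of the immunoproteasome, thymus and testis subunits and, to the right in each panel, of the constitutive paralog; points are the 3 libraries. Psmb8, Psmb10, Psmb11 and Psma8 lie below their paralog in every library, and Psmb9 lies above Psmb6 in replicate 1.

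The 19S base unfolds substrates and threads them into the core. Its 6 ATPases had a median percentile of 79.1 ± 0.546, with Psmc4 highest at 91.98 ± 0.941 and Psmc1 lowest at 65.5 ± 4.26. Among the non-ATPase subunits of the base, the ubiquitin receptor gene Psmd4 had signals of 6.45, 18.8 and 14.6 and a mean percentile of 94.1 ± 0.890. Psmd2, which docks ubiquitin-bearing shuttles, stood at 89.4 ± 5.35, and Psmd1, its scaffold partner, at 73.7 ± 0.652.

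The 8 genes of the 19S lid had a median percentile of 82.5 ± 1.01. Psmd12 led at 92.5 ± 5.47, with signals of 7.31, 18.3 and 9.76. Psmd14, the enzyme that cuts off the ubiquitin chain, stood at 72.3 ± 5.26, and Psmd6 was the lowest of the lid at 69.4 ± 6.85. The other lid genes, Psmd3, Psmd7, Psmd8, Psmd11 and Psmd13, lay between 76.6 and 88.3.

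The activators open the gate of the core without ATP. Psme1 and Psme2 encode the alpha and beta chains of the same ring, which interferon induces. Psme1 was among the lowest genes with a peak in every library, with signals of 1.62, 3.00 and 1.21 and a percentile of 58.8 ± 1.74. Psme2 had signals of 3.40, 12.8 and 11.1 and a percentile of 83.6 ± 6.40, above Psme1 in each library. The strongest peak of Psme2, however, was centred between 469.5 and 589.5 bp upstream and also stood in the promoter of Rnf31, whose start site lies 607 bp away. The peak at the start site of Psme2 itself had signals of 2.28, 9.34 and 7.93, which were also above those of Psme1.

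Psme3 encodes the nuclear activator, and its signals of 3.52, 10.2 and 10.3 gave a percentile of 81.8 ± 5.24. The strongest peak of Psme3 was centred 142.5, 2.5 and 392.5 bp upstream in replicates 1, 2 and 3. In replicate 3 the peak at its start site had a signal of 4.99. Psme4, a large activator known from sperm cells and DNA repair, had signals of 4.05, 10.4 and 6.31 and a percentile of 80.4 ± 1.64. Psme2b had no peak in any library, in a promoter where 63.0% of the 31-letter stretches occur more than once in the genome, and the part of reads that match several places was not tested. Psmf1, the inhibitor of the core, stood at 69.9 ± 2.44.

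Assembly chaperones build the particle and then leave it. Psmd5, a chaperone of the 19S base, had the highest mean percentile of all 50 genes, at 94.8 ± 4.24, with signals of 5.26, 22.03 and 21.1 in replicates 1, 2 and 3. Psmd9, another base chaperone, stood at 88.3 ± 2.48, and Psmd10, known as gankyrin, at 73.7 ± 9.999. The core chaperones stood at 87.5 ± 7.67 for Psmg1, 78.5 ± 4.41 for Psmg2, 70.5 ± 6.63 for Psmg3 and 82.2 ± 6.14 for Psmg4. Each of these 4 had its lowest percentile in replicate 3. The symbol rule also took in Psmc3ip, whose product works in meiotic recombination and is no part of the particle, and it stood at 80.7 ± 3.67.

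Several proteasome genes share their promoter with another gene. A coding TSS on the opposite strand lay in the promoter of 11 of the 50 proteasome genes, against 10.5% of all protein-coding genes. Beside the pairs already named, these were Psmc2 with Dnajc2 at 32 bp, Psmc5 with Ftsj3 at 75 bp, Psmd13 with Sirt3 at 99 bp, Psmb1 with Tbp at 137 bp, Psmd10 with Atg4a at 179 bp, Psma4 with AY074887 at 208 bp and Psmg2 with Cep76 at 263 bp. For these genes a peak cannot be given to 1 of the partners. The 11 genes had a median of their mean percentiles of 76.6, against 80.4 for the other 39, and ranged from 69.7 to 94.1, so a shared promoter did not go with a higher signal here.

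Peaks and footprints lay close to the start sites. The strongest promoter peak of a proteasome gene was centred a median of 28.5, 35.5 and 46.5 bp from the nearest coding TSS in replicates 1, 2 and 3, against 66.5, 71.5 and 64.5 bp over all protein-coding genes. A promoter footprint was present in 45, 48 and 48 proteasome genes, against 51.8%, 65.9% and 54.2% of all protein-coding genes, and in 45 proteasome genes in all 3 libraries, against 49.5%. Psmb11 and Psme2b had none in any library, and Psma8, Psmb8 and Psmb10 had one in replicates 2 and 3. The median number of footprints in a promoter was 5, 11 and 7 in the proteasome genes and 1, 6 and 2 in all protein-coding genes, and it followed the yield of the library. Of all footprints in proteasome promoters, 51.8%, 38.8% and 49.9% lay within 250 bp upstream of a start site, against 48.7%, 34.4% and 47.8% in the promoters of all protein-coding genes.

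**Figure D3:**
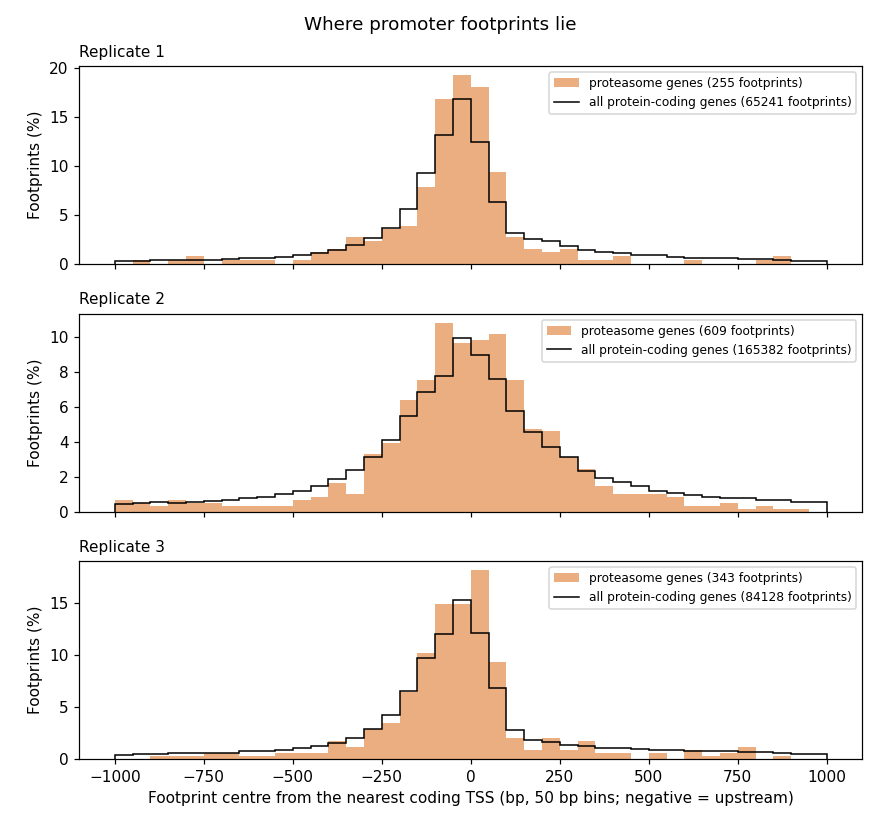
Share of promoter footprints (y axis, %) by the distance of their centre from the nearest coding start site (x axis, bp, bins of 50 bp, negative upstream) in replicates 1, 2 and 3; filled areas are the proteasome genes and lines all protein-coding genes. In both sets the footprints crowd around the start site, and the median footprint of the proteasome genes is centred at -31, -1.5 and -24.5 bp.

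The letters inside the footprints were searched for 14 motifs on both strands. A motif counted where it lay wholly in a footprint extended by 5 bp on each side, so a count moves with the number of footprints, and a match describes letters and not a bound factor. ETS letters were footprinted in at least 1 library in 17 of the 50 proteasome genes, 34%, against 11.5% of all protein-coding genes, and in all 3 libraries in 8 genes, 16%, against 3.81%. The letters themselves were common: 54% of proteasome genes had them in the 2001 bp around the most upstream start site, against 24.8% of all protein-coding genes. The same ETS match was footprinted in all 3 libraries in Psmc1, Psmc6, Psmd4, Psmd14, Psme3 and Psme4, at distances from 122 bp before to 50 bp after the start site, and those of Psmd4, Psme3 and Psme4 are printed above.

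YY1 letters, AGATGGCG, which occur near the start of many housekeeping genes, were footprinted in 7 proteasome genes, 14%, against 3.11% of all protein-coding genes, and in all 3 libraries in Psmc4, Psmd7 and Psmd11, against 0.888%. They were present in 20% of proteasome genes, against 6.99% of all protein-coding genes, in the 2001 bp. SP/KLF letters, GGGCGG, were footprinted in 34 proteasome genes, 68%, against 46.3%, and in all 3 libraries in 25, 50%, against 27.3%. They were present in 80% of proteasome genes, against 67.0% of all protein-coding genes, in the 2001 bp. The background was also taken over only those protein-coding genes with a promoter footprint in at least 1 library. On that base it was 69.6% for SP/KLF letters, near the 68% of the 50 proteasome genes. It was 17.3% for ETS, 4.68% for YY1 and 12.6% for ARE letters, each below the proteasome share.

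ARE letters, TGACNNNGC, were footprinted in at least 1 library in 10 of the 50 proteasome genes, 20%, against 8.40% of all protein-coding genes. The letters are loose and were present in 68% of proteasome genes and in 51.9% of all protein-coding genes in the 2001 bp. Per library the count was 6 of 50 in each, against 3.08%, 7.17% and 4.54% in replicates 1, 2 and 3. The 3 genes with a footprinted ARE in all 3 libraries, against 2.20% of all protein-coding genes, were Psmb3, Psmb5 and Psmd9, whose sequences open the account. In Psmb5, the chymotrypsin-like subunit, and in Psmd9 the match was centred 16 and 27 bp upstream of the start site. In Psmb3 it was centred 846 bp upstream, in a peak of its own with signals of 3.09, 3.87 and 2.19, apart from the start-site peak of 4.42, 17.1 and 20.1. The match of Psmd9 overlaps SP/KLF letters that were also footprinted in all 3 libraries. Its footprint therefore cannot be given to the ARE letters alone. Psmb6 and Psmd1 had a footprinted ARE in replicates 2 and 3, and Psma2, Psmc5, Psmc6, Psme4 and Psmg2 in 1 library each. The footprinted matches of Psma2 and Psmc5 lay in no peak in any library. Those of Psmc6 in replicate 1 and Psmd1 in replicate 2 lay outside the peaks of that library. SP/KLF letters adjoin the match of Psmd1 and were footprinted in replicates 1 and 2. The replicate 2 footprint of Psmd1 cannot be given to the ARE letters alone. The match of Psmd1 has the exact consensus letters TGACTCAGC, which 6 proteasome genes hold, against 2.30% of all protein-coding genes.

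CCAAT letters were in footprints of 11 genes, 22%, against 18.4% of all protein-coding genes and 27.6% of those with a footprint. In all 3 libraries they were footprinted in 6 proteasome genes, 12%, against 5.99% of all protein-coding genes. Psmb2, Psmb3, Psma3, Psmc3ip and Psme3 each held at least 1 match that was footprinted in all 3 libraries. GATA letters, AGATAA, read by the GATA factors of red cell precursors, were in footprints of 5 genes, 10%. The share was 2.75% of all protein-coding genes and 4.14% of those with a footprint. In the 2001 bp the letters were present in 66% of proteasome genes, against 57.6% of all protein-coding genes. They were footprinted in no proteasome gene in all 3 libraries and in none in replicate 1. The count was 3 without replicate 2 and 3 without replicate 3. The nuclear respiratory factor NRF1, which is a different protein from that of Nfe2l1, has the letters GCATGCGC, and they were footprinted in 3 genes, against 4.34% of all protein-coding genes: Psma2, Psmg1 and Psmg3.

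Letters tied to inflammation and interferon were footprinted in few proteasome genes. IRF letters, GAAANNGAA, were footprinted in 3 proteasome genes, 6%, against 2.43% of all protein-coding genes. Among the 3 genes was Psmb9, 61 bp downstream of its start site in replicate 2, outside every peak. IRF letters were present in 66% of proteasome genes, against 46.1% of all protein-coding genes, in the 2001 bp. STAT letters, TTCNNNGAA, were footprinted in 3 genes, 6%, against 2.31%, and in all 3 libraries in Psmd3. Without replicate 2 the STAT count was 1. STAT letters were present in 50% of proteasome genes, against 45.1%, in the 2001 bp. NF-kB letters, GGGANTTCC, were footprinted in 0 genes, against 1.01%, and present in 5. E-box letters, CACGTG, were footprinted in 3 genes, against 6.00%, and in 1 without replicate 2. HSF letters, GAANNTTC, were footprinted in 2, against 2.06%, and in 1 without replicate 2, and ATF/CREB letters, TGACGTCA, in 2, Psmb2 and Psmb8, against 2.73%. ZNF143 letters, ACTACAA, were footprinted in 0, against 1.45%. Counts this small differ from the background by a few genes at most.

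**Figure D4:**
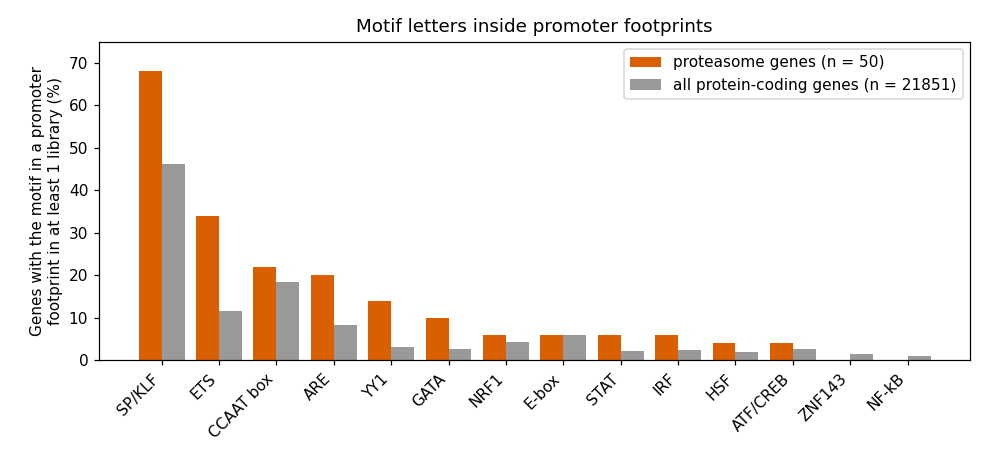
Share of genes with each motif in a promoter footprint in at least 1 library (y axis, %), for the 50 proteasome genes (left bar) and all protein-coding genes (right bar). ETS letters stand at 34% against 11.5%, ARE letters at 20% against 8.40% and YY1 letters at 14% against 3.11%, while CCAAT and E-box letters lie near the background.

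The partners of the proteasome that the symbol rule does not name were open as well. These 36 genes include the cap subunits Adrm1 and Sem1, ubiquitin genes, shuttles, bound deubiquitinases and ligases and the factors that regulate proteasome genes. All 36 had a peak at the promoter in every library, against 51.4% of all protein-coding genes. Their median number of CpG sites was 83.5, against 47 over all protein-coding genes, and the part of CpG content was not tested. The median percentile of the 36 genes was 84.9 ± 1.17. The highest were the shuttle Rad23b at 98.6 ± 1.72, the oxidative stress factor Nfe2l2 at 98.6 ± 0.591 and Zfand2a, an adaptor induced by arsenite, at 97.6 ± 1.00. Nfe2l1 stood at 92.8 ± 6.47, and the lowest was Ubqln2 at 58.0 ± 1.65.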

How the data were processed

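DNase-seq of 3 libraries was deposited as peak lists, footprints and positions with a false discovery rate, in mm10 per the labels. The peak signal is the authors' deposited signal, scaled per library. Per the deposited listing of files, the authors called peaks on each library by itself, with a caller not given in the sources used here. Their deposited q-value (false discovery rate) file holds intervals of at most 0.05, and the deposited footprints carry the constant 0.01, so only positions were used. Of the 2 peak lists per library the one with more peaks was used, and the shorter, stricter list was an alternative. No peak summit was used.

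Start sites came from the GENCODE M21 basic annotation, leaving out the mitochondrial genome. Sequences were read from the RefSeq copy of the same build, GRCm38. The RefSeq promoter table held 45 promoters of 42 of the 50 genes, and all 45 had the letters of that genome at the same place. Overlaps used bedtools 2.31.1, and Python 3.11.15, numpy 2.4.6, pandas 2.3.3, pysam 0.24.0 and matplotlib 3.10.9 did the rest. The overlap, percentile and motif steps were tested on simulated data. The rule for named genes was the 3 highest and lowest, restricted subunits with their paralogs, activators, genes lacking a peak and genes with a footprinted ARE in all 3 libraries; other genes named were chosen after their values were seen. The members and lists were chosen with earlier results of these data known. No test was run, since there is 1 group. Paaf1, on the pathway list, is not in the annotation used. Read depth was not used here.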

Additional observations from a re-analysis of the deposited data

How the results depend on the processing

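No paired analysis was possible because all 3 libraries belong to 1 group. Ranking genes by the length of promoter listed at a false discovery rate of at most 0.05, in place of peak signal, put the median percentile of the proteasome genes at 68.5, against 78.9, and the cause was not tested; on this measure 10 genes stood higher and 25 lower by more than 1 SD. The 4 peak results (share and count with a peak, median percentile, pathway count) moved by less than 1 SD, and counts by less than 1.5 times, with the stricter peaks, promoters of 500 or 2500 bp, the most upstream start site alone, peak midpoints and equal numbers of strongest peaks. The 3 footprint results did so with promoters of 500 bp, the most upstream start site alone and footprints in stricter peaks, and were not run with the other peak settings. Leaving out each library in turn, the share of proteasome genes with a peak ranged from 94% to 97%, the count with a peak in all libraries from 46 to 48, the median percentile from 78.2 to 79.7, and the count with a footprinted ARE from 7 to 9. Of the named genes, Psma8, Psmb8, Psmb10 and Psmb11 depended on the setting: on the stricter list they had a peak in 2, 1, 1 and 0 libraries. With the most upstream start site alone Psma6 stood at 0 and Psmf1 at 36.5. The count of proteasome genes with a footprinted GATA motif fell to 3, against 5, in 4 settings, including those without replicate 2 and without replicate 3. Without replicate 2 the STAT and E-box counts were 1, against 3 each, and the HSF count 1, against 2. Replicate 1 is the shallowest by its number of peaks, and a promoter without a peak there was not detected at that depth.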

Other observations

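An exact spelling of the ARE recurred among the proteasome genes and was noticed after the values were seen. The letters TGACTCAGC, the consensus ARE and also the letters bound by NF-E2, the erythroid relative of the Nfe2l1 factor, lay in the 2001 bp around the most upstream start site of 6 of the 50 proteasome genes, 12%, against 2.30% of all protein-coding genes. All 6 lay downstream of the start site, in an intron, and read GCTGAGTCA on the strand of the gene. The lines give 10 bp on either side in mm10, on the strand of the gene, with the match in capitals. The flanks differ, though the letter right after the match is c in every gene but Psmd1.
Psma3 (chr12:70974950-70974978, plus strand): agccccgggtGCTGAGTCActttagtctc
Psma5 (chr3:108257487-108257515, plus strand): cacttgtcccGCTGAGTCAccgctaatcc
Psmd1 (chr1:86064853-86064881, plus strand): ccggcgtttaGCTGAGTCAgggcgggtga
Psmd12 (chr11:107479713-107479741, plus strand): ggcgccagggGCTGAGTCAcggcgtggag
Psmd2 (chr16:20651881-20651909, plus strand): gaggccttggGCTGAGTCActgctggctc
Psmd7 (chr8:107588221-107588249, minus strand): gcgcagggctGCTGAGTCAcgggcgcgcc
They were centred between 150 bp downstream in Psmd12 and 575 bp downstream in Psma5. Those of Psma3 and Psma5 lay in a peak in all 3 libraries, that of Psmd1 in a peak in 1 library, and those of Psmd2, Psmd7 and Psmd12 in none. The match of Psmd1 was footprinted in 2 libraries and the other 5 in none.

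In Psma5 the match lay in a second peak, centred between 514.5 and 544.5 bp downstream of the start site, with signals of 1.04, 3.23 and 1.70 in replicates 1, 2 and 3, beside the start-site peak of 2.87, 14.1 and 14.97.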
